A study of Homo sapiens with 74 samples.

Results

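LIN28B Cut&Run was measured in 2 libraries of HEK293T cells, a human embryonic kidney line that takes up plasmids readily. In Cut&Run, DNA is cut next to an antibody-bound protein by a tethered nuclease, and the short pieces that diffuse out are sequenced. Cells were transfected with a plasmid that carried the LIN28B open reading frame with a C-terminal V5 tag under the EF1-alpha promoter, and after 48 h the tag was targeted in native chromatin by a V5 antibody. The control was a V5 mock IP of un-transfected HEK293T cells, so the LIN28B libraries differ from the control in the plasmid and in transfection as well as in the tagged protein. Replicates 1 and 2 came from separate wells. All peaks in the 2 files titled LIN28B were used, 606 in replicate 1 and 417 in replicate 2, together 1023 of 92122 peaks in 72 lists of 36 zinc-finger proteins (ZFPs), each list called for its own library. The study's methods give 1 approximate sequencing depth for all libraries, and the lists carry no read total of their own, so list length is the only measure of yield per library used here.

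LIN28B is an RNA-binding protein with a cold-shock domain and CCHC zinc knuckles. It is best known for binding the precursors of let-7 microRNAs and blocking their maturation, and it is expressed in early development and in some cancers, where it helps to keep cells undifferentiated. It is found in the cytoplasm and in the nucleolus, the compartment in which ribosomal RNA genes are transcribed. Peaks on DNA in this assay can come from direct or indirect contact.

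Overlapping peaks of the 2 replicates were joined into 766 regions, of which 231 were found in both, 370 in replicate 1 only and 165 in replicate 2 only. EEF1A1 and LIN28B exons, where reads of the plasmid align, gave 4 of the 231. The remaining 227 regions were mainly repeats. Satellite sequence rich in the pentamer ATTCC, which reads GGAAT on the opposite strand, made up 164 of them. A further 16 lay in centromeric arrays with the period of alpha satellite. The rest were 13 other tandem repeats, 12 regions of mitochondrial sequence, 6 of ribosomal DNA, 2 with the telomere-type hexamer and 14 with no repeat assigned.

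Peaks over the plasmid's own sequence were used to check the labels. EEF1A1, whose promoter drives the open reading frame, had folds of 4003 in replicate 1 and 2661 in replicate 2 over the mock IP (chromosome 6, 73520048 to 73521255, hg38). Fold here is the deposited ratio of library signal to control signal at a peak's summit. LIN28B had 3 exons with peaks in each replicate. The exon with the highest folds, at chromosome 6, 105078411 to 105078811, reached 3561 and 2569, and the exon peaks at 104958097 and 105026298 had 1108 and 936, and 1387 and 1169. No other region found in both replicates had a lower fold above 9.57. Apart from EEF1A1, the highest exon folds of both libraries thus fell on the gene named in their labels.

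In replicate 2 the next highest peak after these lay on a LIN28B pseudogene. It spanned chromosome 5, 163416582 to 163416747, had a fold of 147 and overlapped no peak of replicate 1 or of another ZFP. The annotation there is ENSG00000250114, an unprocessed pseudogene. Over 141 bp of the 166-bp peak its sequence was 99.3% identical to the LIN28B transcript LIN28B-203. The 1 mismatch in this stretch is shown in capitals (plus strand). The rest of the peak lay outside the alignment, and the plasmid's own sequence was not compared.

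LIN28B pseudogene, chr5:163416582-163416722: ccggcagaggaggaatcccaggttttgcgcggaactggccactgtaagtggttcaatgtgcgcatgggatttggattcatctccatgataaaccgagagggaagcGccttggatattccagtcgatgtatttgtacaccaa

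A further peak of replicate 2, with a fold of 31.4, lay on a coding exon of CISD2, the gene of another ZFP of the study (chromosome 4, 102885214 to 102885447). It was found in replicate 2 only and in no list of another ZFP. Its source was not tested. The next fold in replicate 2 was 15.7, in a centromeric array of chromosome 17. In replicate 1 the highest fold outside LIN28B and EEF1A1 was 10.8, over RN7SK.

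Peaks on exons of other ZFPs' genes also linked the LIN28B lists with those of SALL4, CNBP and ZFP36L1. The LIN28B lists had 3 peaks in replicate 1 and 1 in replicate 2 on exons of SALL4, a transcription factor of pluripotent cells, with highest folds of 5.89 and 5.59. Conversely, both lists of SALL4 (9.63 and 12.4), CNBP (6.30 and 6.15) and ZFP36L1 (6.83 and 9.81) had a peak on a LIN28B exon. Outside the pairs among CNBP, LIN28B, SALL4 and ZFP36L1, a set chosen after these values were seen, 3.53% of 1248 pairs of a ZFP's lists and another ZFP's exons had a peak in both replicates. Replicate 1 of LIN28B also had a peak on an exon of CNBP (fold 4.56) and on one of TEX13A (fold 8.04), which replicate 2 lacked. On ZFP36L1 exons no peak was found in both LIN28B replicates. The source of these exon peaks was not tested.

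The sequences of the windows below show what carried the signal. Each is the plus strand of hg38, 100 bp to each side of the summit of the region's peak with the higher fold. In the 2 satellite regions, one with the second highest lower fold (chromosome 2) and one from the block on chromosome 10, capitals mark each ATTCC or GGAAT, of which there are 13 and 25.

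Satellite, chr2:89820158-89820358: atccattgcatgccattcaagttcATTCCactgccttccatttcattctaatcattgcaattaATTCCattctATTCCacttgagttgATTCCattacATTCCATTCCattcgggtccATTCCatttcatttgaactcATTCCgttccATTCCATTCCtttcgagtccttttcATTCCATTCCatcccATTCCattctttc
Satellite, chr10:41875039-41875239: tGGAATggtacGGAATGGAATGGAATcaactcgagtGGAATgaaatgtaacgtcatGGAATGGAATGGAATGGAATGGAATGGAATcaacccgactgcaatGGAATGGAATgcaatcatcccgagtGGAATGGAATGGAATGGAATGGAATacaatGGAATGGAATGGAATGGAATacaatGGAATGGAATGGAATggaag

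In the centromeric windows capitals mark the core of the CENP-B box, the element bound by the centromere protein CENP-B, searched as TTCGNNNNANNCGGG on both strands. The first is from the region with the highest lower fold of all 227, the second from chromosome 1, and the last is the only region that no other ZFP's list overlapped.

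Chromosome 17 array, chr17:25573540-25573740: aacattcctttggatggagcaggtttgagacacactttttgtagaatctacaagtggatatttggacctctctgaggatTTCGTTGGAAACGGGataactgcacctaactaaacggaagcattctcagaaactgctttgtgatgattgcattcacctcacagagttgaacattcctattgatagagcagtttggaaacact
Chromosome 1 array, chr1:122675057-122675257: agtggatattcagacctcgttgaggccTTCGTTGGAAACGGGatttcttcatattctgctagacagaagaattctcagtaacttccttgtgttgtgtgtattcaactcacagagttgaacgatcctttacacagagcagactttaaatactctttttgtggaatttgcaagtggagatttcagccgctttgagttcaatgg
Found for no other ZFP, chr1:121610388-121610588: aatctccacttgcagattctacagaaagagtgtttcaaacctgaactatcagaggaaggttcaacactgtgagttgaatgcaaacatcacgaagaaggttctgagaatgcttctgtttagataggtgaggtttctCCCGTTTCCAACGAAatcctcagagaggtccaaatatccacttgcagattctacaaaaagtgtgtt

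Satellite regions gave the largest part of the lists. Both replicates had 220 satellite-like peaks, meaning that 5 or more of these pentamers lay no farther than 100 bp from the summit, which is 36.3% of replicate 1 (exact 95% interval 32.5 to 40.3%) and 52.8% of replicate 2 (47.8 to 57.6%). Among all 91099 peaks of the other ZFPs it was 10.4%, where long lists weigh most. These intervals cover counting error only. Of the 252 regions in this class, 65.1% were found in both replicates, against 5.04% of the 278 regions with no repeat assigned. Among mitochondrial regions the share was 85.7% of 14. The other repeats had lower shares: 28.6% of 7 telomere-type, 20% of 65 other tandem and 10.9% of 55 ribosomal DNA regions. For alpha-period regions (centromeric arrays) it was 17.6% of 91, with 57 in replicate 1 only and 18 in replicate 2 only. The 164 regions covered 171790 bp with a median width of 790.5 bp. Their folds ran from 1.32 to 7.57 in replicate 1 and from 1.21 to 9.17 in replicate 2, with medians of 2.94 and 2.96.

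Chromosome 4 held 33 of the 164 satellite regions, and chromosomes 1 and 10 held 26 each. On chromosome 4 they lay in 2 blocks beside the centromere. The first block, 49091457 to 49156508, had 24 regions that covered 60.7% of its length, with median folds of 3.15 and 3.03. The second, 49632965 to 49653682, had 9 regions with median folds of 2.54 and 3.21. On chromosome 1, 25 regions between 143184656 and 143267544 covered 27.1% of that stretch with median folds of 2.67 and 2.44. On chromosome 10, 23 regions between 41859261 and 41915451 covered 47.2% of it with medians of 2.90 and 3.25. Chromosome 20 had 15 regions between 31052206 and 31241965. These blocks differ in sequence: the median number of pentamers per window was 10 in the chromosome 1 block. It was 23 in the chromosome 10 block and in both chromosome 4 blocks.

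The 5 satellite regions with the highest lower fold were spread over 4 sequences. The first, on the unlocalized contig of chromosome 17 named chr17_KI270730v1_random (46410 to 46626), had folds of 7.57 and 9.17. The second was on chromosome 2, 89820048 to 89820820, with 7.09 and 7.20. It lay 30971 bp from the nearest transcription start site (TSS), that of the immunoglobulin kappa segment IGKV2D-40. A region placed on chromosome Y (10785814 to 10786464) followed with 7.38 and 6.53. Whether these cells carry a Y chromosome was not examined, and reads of other satellite copies can be placed there. On chromosome 10, 42091365 to 42092348 had 7.17 and 6.16, and 41873380 to 41875465 had 5.74 and 5.55. These 5 were called for 9, 20, 12, 25 and 33 other ZFPs in the same order.

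The highest folds outside the plasmid's genes that both replicates shared were in the centromeric array of chromosome 17, where 7 of the 16 alpha-period regions lay between 24150759 and 26885537. At 25573101 to 25573941 the folds were 9.57 and 10.2. At 26573053 to 26573324 they were 8.83 and 11.01, and at 24150759 to 24151789 they were 7.92 and 15.7, with replicate 2 higher in both. Regions at 25353002 (8.20 and 8.52) and 26549013 (8.12 and 7.95) lay in the same array, held the CENP-B box and stayed under the identity thresholds for a period (best identity 0.486 at 171 bp and 0.487 at 338 bp), so they count among the 14 with no repeat assigned. The next without satellite-like sequence were 26140402 to 26141537 with 6.46 and 6.36 and the region at chromosome 1, 121610310 with 6.57 and 6.85. Outside satellites and arrays, a region on chrUn_GL000216v2 (139660 to 140327) had 4.89 and 5.35. Over all 7 alpha-period regions of chromosome 17 the medians were 6.46 and 6.36.

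The other 9 alpha-period regions lay on chromosome 1 between 122542376 and 123743713, with median folds of 3.59 and 3.73. Their repeat had a period of 340 bp in most, which is a dimer of the alpha satellite unit. The window of 122674114 to 122675276 repeated with 93.8% identity at 340 bp, whereas the chromosome 17 window above repeated with 55.2% identity at 171 bp. Chromosome 17 regions were called for a median of 20 other ZFPs, and chromosome 1 regions for a median of 6. The CENP-B box was found within 500 bp of the summit in 15 of the 16 regions. Over all lists it was found for 95.2% of 1586 alpha-period peaks, 0.709% of 69704 peaks with no repeat assigned and 2.19% of all 92122 peaks.

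One region was called for no other ZFP, at chromosome 1, 121610310 to 121610614. It had folds of 6.57 and 6.85, lay 29786 bp from the TSS of the long non-coding RNA LINC01691, and repeated with 58.1% identity at 338 bp. It too held a CENP-B box, with its core at 121610523 to 121610537. With the demand that no peak of another ZFP lie within 1 kb, it was again the only one of the 227.

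In the 63 regions without the pentamer satellite, the 12-mer found most often within 100 bp of a summit was AGTTTCTGAGAA, counted on both strands. It was present in 14 regions (22.2%), all on chromosomes 1, 4 and 17. It was present in 6.65% of the 1023 LIN28B peaks and 0.929% of all 92122 peaks, where long lists weigh most. At least 1 peak of each of the 36 ZFPs held it. The word was picked from LIN28B regions, so a higher share in LIN28B peaks follows in part from that choice. All 14 regions were alpha-period or had no repeat assigned. By share of alpha-period peaks (mean 10.2%) LIN28B ranked 5 from the top, with ZFP36L1 highest at 22.5%. A match is a description of the sequence and not of a binding site.

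**Figure D1:**
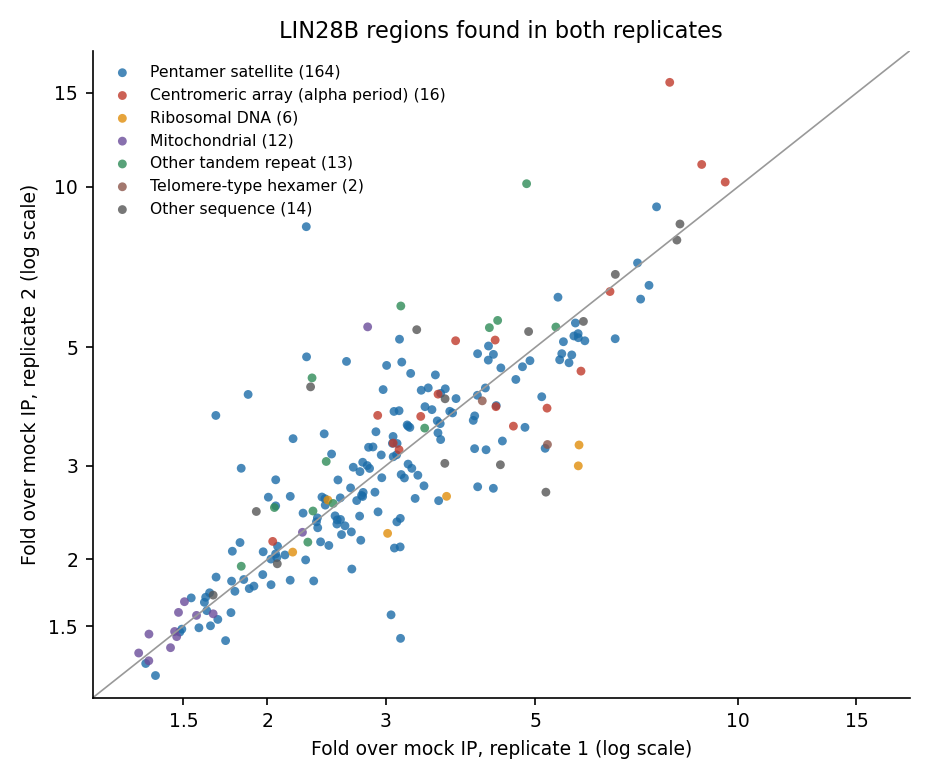
Fold over the mock IP of the 227 LIN28B regions found in both replicates, replicate 1 on the horizontal and replicate 2 on the vertical axis, both logarithmic, coloured by kind of sequence. The grey line marks equal folds. Most regions at the upper right are from the centromeric array of chromosome 17, some of them coloured as other sequence, with satellite regions beside them.

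The folds of the 2 replicates followed each other across these regions. Across regions, which share libraries and repeat families and are not independent, Spearman's rho was 0.816. Of the 227 regions, 203 had folds within 1.5-fold of each other, and 115 were higher in replicate 1. The median log2 ratio of replicate 1 to replicate 2 was 0.0037, with an SD of 0.37 over the regions. In 6 regions the folds differed more than 2-fold. The widest difference was in a satellite region on chrUn_GL000216v2 (10512 to 14908) with 2.28 and 8.42. The others included 4 satellite regions on chromosomes 4 and 20 and a tandem repeat in PRKCA, a protein kinase C gene (chromosome 17, 66798621 to 66799426), with 4.85 and 10.1.

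**Figure D2:**
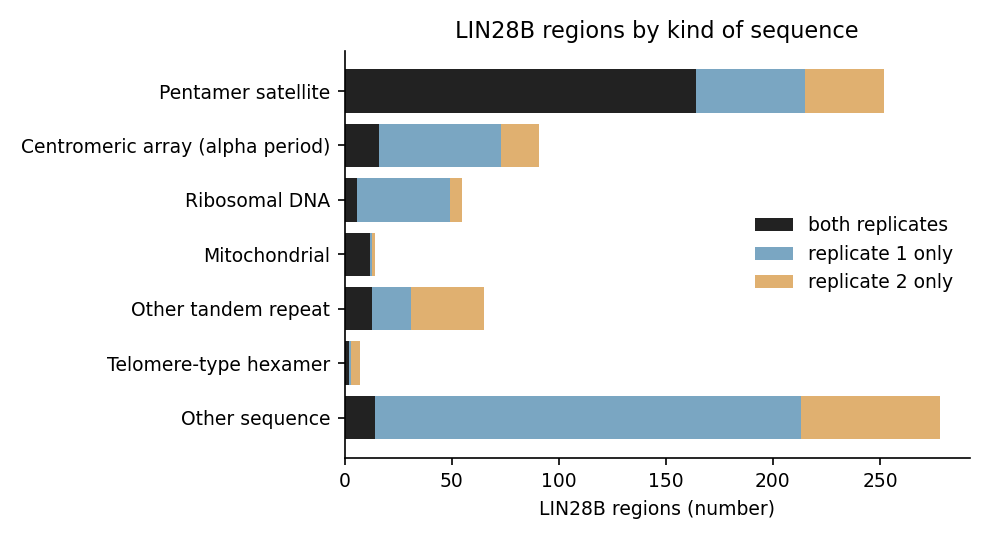
Number of LIN28B regions of each kind of sequence, stacked by whether they were found in both replicates (black), replicate 1 only (blue) or replicate 2 only (orange). Satellite regions are mostly black (164 of 252), and regions with no repeat assigned are mostly from replicate 1 only (199 of 278).

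Ribosomal DNA, the repeated genes for the large precursor of ribosomal RNA, separated the replicates. Replicate 1 had 49 peaks on copies of the unit and replicate 2 had 12. In replicate 1 they were spread over 18S (14), 28S (30) and the transcribed spacers (5). In replicate 2, 5 lay in 28S, 5 in 5.8S and 2 in 18S, and no peak of replicate 1 lay in 5.8S. Copies are nearly identical, so reads of one can be placed on another, and peaks on different copies are not independent.

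Both replicates shared 6 ribosomal DNA regions, and 4 of them covered the 3′ end of 28S. They were chromosome 21, 8401185 to 8401995 (folds 5.81 and 3.28), chromosome 21, 8445403 to 8446217 (3.02 and 2.24), chrUn_GL000220v1, 117433 to 118425 (5.79 and 2.996) and chr22_KI270733v1_random, 134429 to 135292 (2.18 and 2.06). In all 4 replicate 1 was higher. The other 2 lay in 18S sequence, at chromosome 21, 8254481 to 8255522 (3.69 and 2.63) and 8988210 to 8988702 (2.46 and 2.58). Within the last 1000 bp of 28S, replicate 1 had 7 peaks and replicate 2 had 5, and both replicates of 27 other ZFPs also had one there. The 28S window shown is from the first of these regions, where the peaks of both replicates overlapped. It is centred on the summit of replicate 1, and the summit of replicate 2 lay outside it, nearer the 3′ end.

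End of 28S, chr21:8401527-8401727: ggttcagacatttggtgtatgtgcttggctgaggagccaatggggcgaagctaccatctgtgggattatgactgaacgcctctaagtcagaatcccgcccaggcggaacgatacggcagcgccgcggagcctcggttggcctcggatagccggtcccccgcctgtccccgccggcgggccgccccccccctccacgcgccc

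At the 18S region of 8254481 a peak was called for 27 other ZFPs, and 26 of them had a higher fold there than LIN28B. The share of peaks on ribosomal DNA, 8.09% in replicate 1 and 2.88% in replicate 2, averaged 5.48% and ranked 18 from the top among the 36 ZFPs, with a median of 5.46% in the others.

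**Figure D3:**
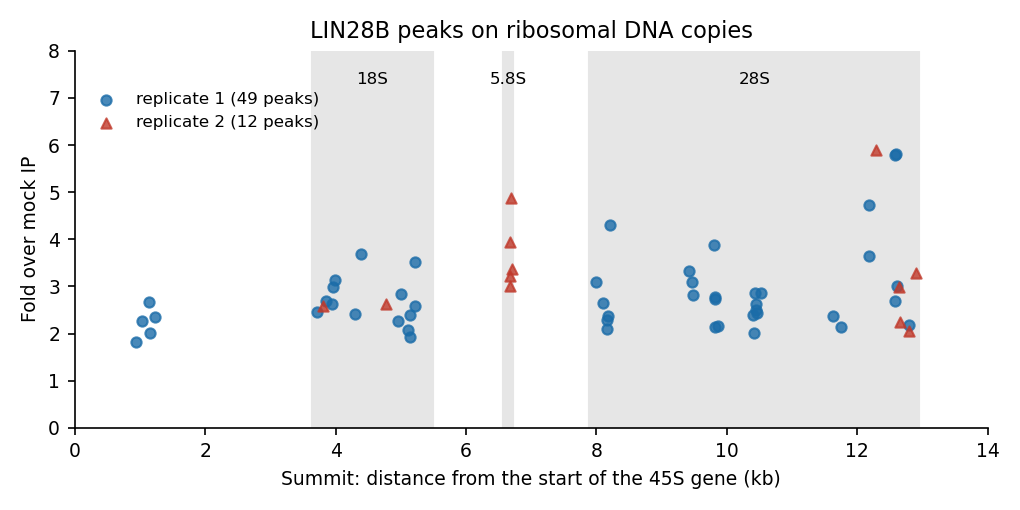
Fold over the mock IP of each LIN28B peak on a ribosomal DNA copy against the distance of its summit from the start of the 45S gene in kb, with the 18S, 5.8S and 28S genes shaded. Replicate 1 (circles, 49 peaks) covers 18S and 28S, replicate 2 (triangles, 12 peaks) has the 5.8S peaks, and both have peaks at the end of 28S.

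Promoters made up little of what the replicates shared. Peaks within 1 kb of a TSS were 130 of 606 in replicate 1 (21.5%, exact 95% interval 18.2 to 24.9%) and 42 of 417 in replicate 2 (10.1%, 7.36 to 13.4%). Among the 91099 peaks of the other ZFPs, 54.3% lay as close, where long lists weigh most. With each of the other ZFPs given equal weight, the mean share was 33.8% and the median 31.5%. The genes with a peak within 1 kb of a TSS in both replicates were 45 of 62700, or 0.0718%, and the protein-coding ones 14 of 20046, or 0.0698%. These counts include the plasmid's genes LIN28B and EEF1A1 and mitochondrial genes. Without them, MUC3A and ADAP1 were the only protein-coding genes with such a peak in both replicates. Of the 227 regions, 16 lay within 1 kb of a TSS and 11 of these were mitochondrial, where genes are dense.

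Only 3 nuclear regions that both replicates shared lay within 1 kb of the TSS of a protein-coding gene. The first was SALL4 (chromosome 20, 51791704 to 51792199), on an exon, where the folds were 5.89 and 5.59. Its replicate 1 peak lay 879 bp from the TSS and its replicate 2 peak 1173 bp, past the limit. The other lists with a peak there were those of SALL4 itself, CNBP and ZFP36L1. The second was MUC3A, a membrane mucin gene, where a 51-bp tandem repeat overlapped the TSS (chromosome 7, 100957738 to 100958571, folds 3.43 and 3.53). The third was ADAP1, 379 bp (replicate 1) and 154 bp (replicate 2) from the TSS of this Arf GTPase-activating protein gene (chromosome 7, 905770 to 906356), with 3.16 and 5.98 and a short tandem repeat. Both MUC3A and ADAP1 regions were called for 31 other ZFPs. In MUC3A the first unit of the repeat is in capitals.

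SALL4 exon, chr20:51792044-51792244: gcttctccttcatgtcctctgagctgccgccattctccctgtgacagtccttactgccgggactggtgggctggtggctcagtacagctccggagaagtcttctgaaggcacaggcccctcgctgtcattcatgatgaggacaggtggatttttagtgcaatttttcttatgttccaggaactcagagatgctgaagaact
MUC3A, chr7:100958154-100958354: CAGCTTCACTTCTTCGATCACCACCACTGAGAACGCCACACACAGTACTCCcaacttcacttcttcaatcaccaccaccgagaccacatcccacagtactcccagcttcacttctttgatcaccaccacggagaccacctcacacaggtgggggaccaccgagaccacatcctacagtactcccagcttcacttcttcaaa

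Apart from these, the promoter peaks of the replicates were separate. Outside mitochondrial sequence and the plasmid's genes, 93 peaks of replicate 1 and 18 of replicate 2 lay within 1 kb of a protein-coding TSS. Their median folds were 5.07 and 5.02, and the median −log10 q was 2.84 and 2.36, with 6 and 2 peaks at 5 or more. In replicate 1 the highest was the RN7SK peak beside GSTA4 (10.8), followed by TEX13A (8.04), RPS29 beside RN7SL1 (7.18), SPAG7 (6.90) and ESCO1, a cohesin acetyltransferase (6.63). In replicate 2 they were OSBP2, an oxysterol-binding protein (6.02), and ADAP1. Of these peaks, 19 in replicate 1 and 8 in replicate 2 were found for no other ZFP. All but those named for both replicates were seen in 1 LIN28B library only.

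The 12 mitochondrial regions were 8 on the mitochondrial genome and 4 copies in the nuclear genome. Those on the mitochondrial genome had low folds, from 1.29 to 1.66 in replicate 1 and 1.29 to 1.58 in replicate 2, and covered MT-ND1, MT-CO1, MT-CO2, MT-ND4, MT-ND5, MT-CYB and MT-RNR1 among others. The nuclear copies were 3 on chromosome 1 near MTCO1P12 (highest 2.25 and 2.25) and one on chromosome 11, 10509377 to 10509697, 1051 bp from MIR4485, with 2.82 and 5.46. Each was called for 19 to 29 other ZFPs.

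Tandem repeats of other kinds were found in both replicates at 13 regions. The highest was in SNTG2, a syntrophin gene (chromosome 2, 1222767 to 1223078), with 5.36 and 5.46 and a 70-bp unit that repeated with 86.7% identity. The first unit is in capitals.

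SNTG2, chr2:1222909-1223109: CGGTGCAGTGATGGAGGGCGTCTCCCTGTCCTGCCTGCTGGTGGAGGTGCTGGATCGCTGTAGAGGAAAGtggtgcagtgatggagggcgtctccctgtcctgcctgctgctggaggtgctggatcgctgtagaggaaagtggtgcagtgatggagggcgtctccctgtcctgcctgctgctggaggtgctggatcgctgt

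PTPRN2, a receptor phosphatase gene, held 2 such regions (158147472 and 158148481 on chromosome 7), with 2.296 and 2.16, and 2.05 and 2.50. AT-rich repeats with a 42-bp unit lay at chromosome 4, 49709702 (4.27 and 5.44), and on chrUn_KI270333v1 and chrUn_KI270467v1. The 2 telomere-type regions were at chromosome 5, 10185 to 11680 (4.17 and 3.97), and chromosome 22, 50808033 to 50808437 (5.21 and 3.29).

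Outside the mitochondrial genome, no small RNA gene had a peak in both replicates, and 7 of 7474 annotated ones (0.0937%) had one in either. Mitochondrial tRNA and rRNA genes were not counted here. In replicate 1 they were RN7SK, the RNA of the 7SK complex that restrains transcription elongation (fold 10.8), with the overlapping entry 7SK, RN7SL1 and RN7SL2, the signal recognition particle RNAs (7.18 and 5.44), and the miscellaneous RNA ENSG00000276089 on chromosome 13 (5.58). In replicate 2 they were RNA5-8SN2 and another 5.8S gene, with 3.36 and 4.87. RN7SK, RN7SL1 and RN7SL2 were called for 24, 27 and 23 other ZFPs. By share of peaks, 0.660% of replicate 1 and 0.480% of replicate 2 overlapped a small RNA gene, against 1.76% of the peaks of the other ZFPs.

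The let-7 microRNA genes had no LIN28B peak, where 0.0937% of 7474 small RNA genes had one in either replicate. A peak of any ZFP lay within 1 kb of only 2 of the 12 let-7 hairpins, so the absence does not set these genes apart. The nearest peak lay 547964 bp from the MIRLET7G hairpin, and the median distance over 12 hairpins was 3339270 bp. A list of 56 genes of the let-7 and LIN28 pathway had 4 with a peak over the gene (7.14%), against 0.517% of 62700 genes, but LIN28B itself and SALL4 are 2 of these, and both had peaks on exons that are carried by plasmids of the study. The other 2 were IGF2, a growth factor gene (replicate 2, chromosome 11, 2132808 to 2133186, fold 7.21), and MSI2, an RNA-binding protein gene (replicate 1, chromosome 17, 57337432 to 57337644, fold 4.42). Within 1 kb of a TSS the count was 2 of 56, LIN28B and SALL4, against 0.389% of all genes. Of 97 ribosomal protein genes, RPL27A (5.68) and RPS29 (7.18) had a peak within 1 kb of a TSS in replicate 1 and none did in replicate 2, against 0.748% of 20046 protein-coding genes in either. The peak counted for RPS29 is that over RN7SL1. Of 25 nucleolar protein genes, 0 had one.

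Assigning each peak to its nearest TSS within 100 kb gave 251 genes in replicate 1 and 139 in replicate 2, together 337 different genes, of which 53 (15.7%) were found in both.

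Nearly all regions that both LIN28B replicates had were also in lists of other ZFPs. Of the 227, 226 (99.6%) overlapped a peak of at least 1 other ZFP, and 147 (64.8%) overlapped peaks of at least 18 of the 35 others. In the other ZFPs' regions found in both replicates, pooled, these shares were 96.9% and 34.4% of 11182, and the medians over the ZFPs were 99.1% and 52.1%. LIN28B ranked 13 by each among the 34 ZFPs with at least 1 region in both replicates. A region found in both LIN28B replicates was called for a median of 21 other ZFPs, and one found in a single replicate for a median of 3. Repeats made up 93.8% of the former and 50.7% of the latter, and these groups were not compared within a kind of sequence. Of the 535 single-replicate regions, 157 (29.3%) were called for no other ZFP.

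Satellite regions were called for a median of 22 other ZFPs, alpha-period regions for 11, tandem repeats for 28 and ribosomal DNA for 27. Peaks of all 35 other ZFPs overlapped 8 regions, all satellite. The highest in fold were chromosome 17, 21975676 to 21977127 (4.33 and 4.85), chromosome 4, 49095833 to 49100030 (4.26 and 4.73), and chromosome 1, 143219556 to 143221117 (3.07 and 3.30).

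**Figure D4:**
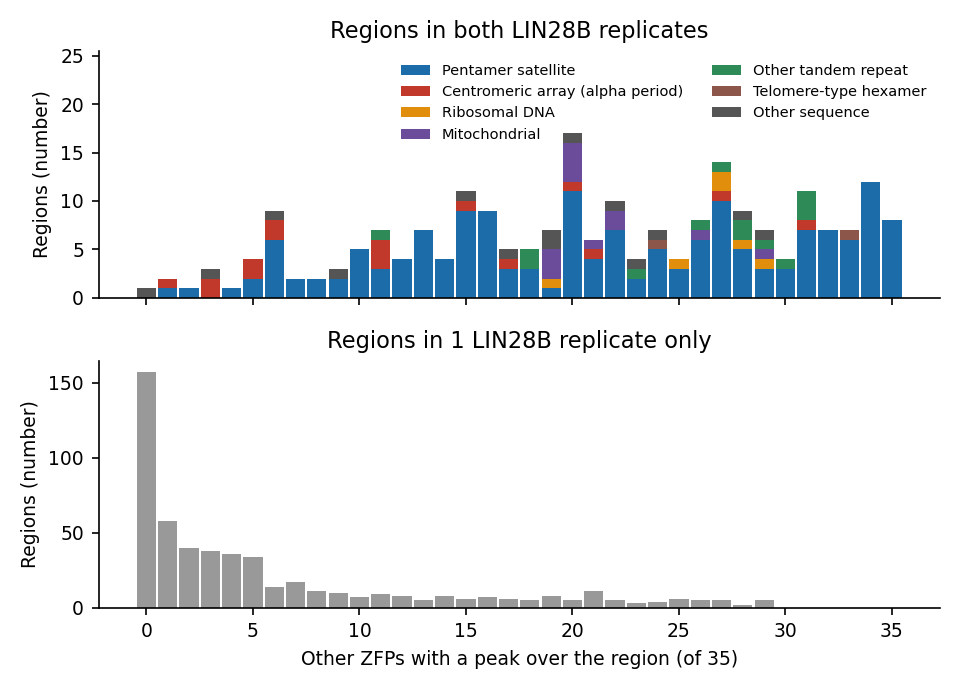
Number of LIN28B regions against the number of other ZFPs, of 35, with a peak over them, for the 227 regions in both replicates (upper panel, coloured by kind of sequence) and the 535 in 1 replicate only (lower panel). Only 1 of the 227 is at 0, whereas 157 of the 535 are.

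CNBP, a zinc-knuckle protein that binds nucleic acids like LIN28B, had a peak over 209 of the 227 LIN28B regions (92.1%), and LIN28B had a region over 182 of the 273 regions (66.7%) found in both CNBP replicates. BRCA1 had a peak over 89.0%, with 64.8% of its 273 regions shared. SALL4, with 540 peaks in all, had one over 82.8%, and 70.2% of its 141 regions were shared. For ZFP36L1, which binds AU-rich mRNA elements, the shares were 82.4% and 69.5%. ZFP36L1 had a peak over 15 of the 16 alpha-period regions, CNBP over 14 and SALL4 over 6. At the chromosome 17 region with the highest lower fold, 20 other ZFPs had a peak, and only ZFP36L1 had a higher fold (12.6). CTCF had a peak over 18.5%, the lowest share, with 4938 peaks in its lists. These shares also depend on list length, and all lists compare transfected cells with mock IP controls, each of which serves the lists of its batch.

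LIN28B was then compared with the other ZFPs by 7 measures of the whole list. In each case its mean over 2 replicates was set against those of 35 other ZFPs by a two-sided exact permutation test, in which each of the 36 ZFPs takes the label LIN28B in turn. The smallest p that this test can give is 0.0278, and after Benjamini-Hochberg adjustment over 7 measures a single measure cannot pass 0.05. None did, and 0 of the 7 had an unadjusted p under 0.05 (smallest exact p = 0.139).

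The satellite-like share was 44.5% ± 11.6 (SD, n = 2) for LIN28B and 26.5% ± 18.1 (SD, n = 35) for the other ZFPs, ranking 7 from the top (exact permutation test, p = 0.472, adjusted p = 0.648). For closeness to a TSS (1 kb or less) the share was 15.8% ± 8.05 (SD, n = 2) against 33.8% ± 23.3 (SD, n = 35), with an exact p of 0.694. The share that overlapped the other replicate, without the plasmid's genes, was 38.5% and 60.05% in replicates 1 and 2, against a mean of 36.8% ± 17.5 (SD, n = 35). Median peak width differed most in rank, with 353 and 342 bp against 259 ± 60.5 bp (SD, n = 35), rank 4 from the top (exact permutation test, p = 0.139, adjusted p = 0.648). GC content around summits was 48.5% and 45.3%, against 54.8% ± 7.80 (SD, n = 35). The number of peaks, 511.5 ± 134 (SD, n = 2), was below the mean of 1301 and the median of 725 of the other ZFPs. The share over small RNA genes was 0.570% against 2.17% ± 2.94 (SD, n = 35). By each measure LIN28B lay inside the range of the others.

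**Figure D5:**
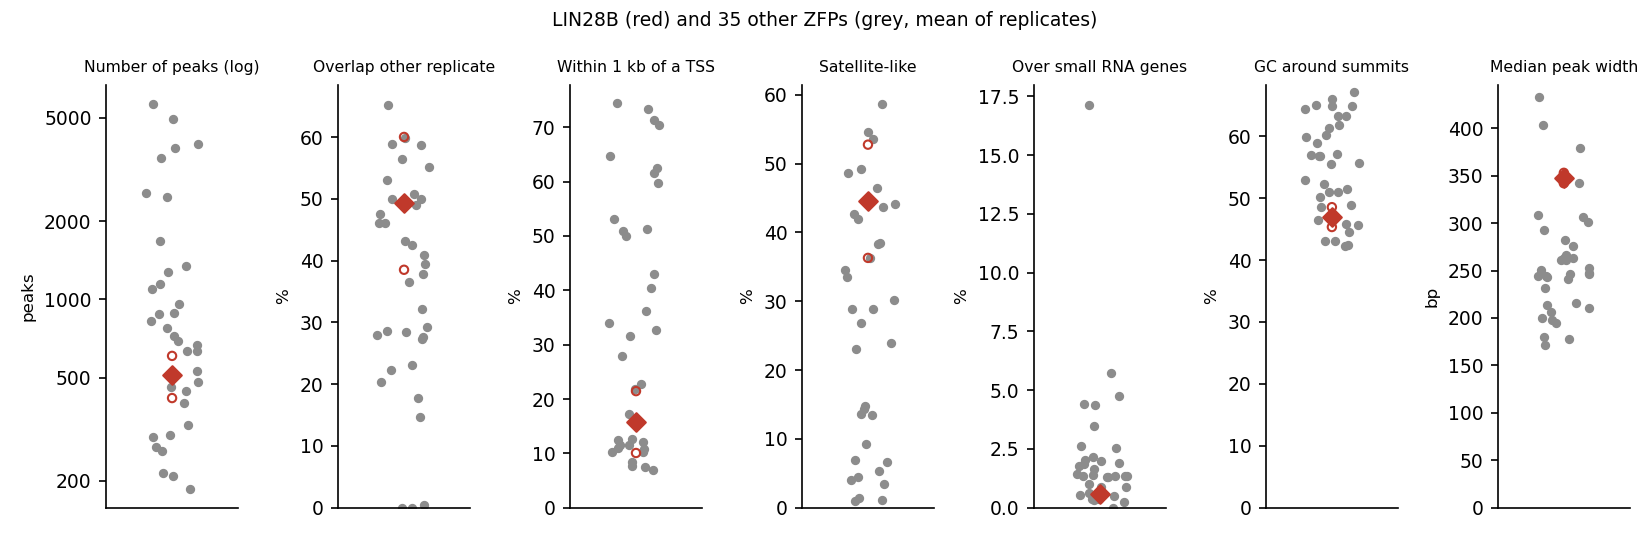
The 7 measures of the peak lists, with the mean of 2 replicates for each of 35 other ZFPs (grey) and for LIN28B (red diamond, with its replicates as open circles). The vertical axes are in peaks (logarithmic), percent or bp, and horizontal position within a panel has no meaning.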

How the data were processed

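Both LIN28B peak lists and the 70 lists of the other 35 ZFPs were used. Per the labels and the study's methods, the authors trimmed reads with Trimmomatic 0.36, aligned them to hg38 with Bowtie2 2.3.5.1, removed duplicates with Picard and ran the peak caller MACS2 2.2.7.1 on every library separately, with its batch's V5 mock IP as control and an FDR of 0.05. The deposited fold is a ratio of library to mock IP signal, and the deposited −log10 p and −log10 q values and the score, 10 times −log10 q, are also the authors'. Reads that fit several repeat copies can be placed on any of them, which affects folds and positions in satellites, arrays and ribosomal DNA.

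Peaks were joined by an overlap of at least 1 bp, and TSSs were those of GENCODE 44 on hg38. Windows reached 100 bp to both sides of each summit. Those with 5 or more ATTCC or GGAAT were called satellite-like. Alpha-period regions matched themselves over 1001 bp at a lag of 169 to 173 bp (identity at least 0.5) or 338 to 343 bp (at least 0.6), with no shorter lag up to 165 bp reaching 0.5, and other tandem repeats reached 0.6 at a lag of 2 to 400 bp. Telomere-type windows held at least 5 TTAGGG or CCCTAA. Ribosomal and mitochondrial sequence was found with blastn 2.17.0 (at least 90% identity over 80% of the window). Scripts ran under Python 3.11.15 with pandas 2.3.3, scipy 1.17.1 and numpy 2.4.6. The overlap procedure was checked with bedtools 2.31.1, and matplotlib 3.10.9 drew the plots. The procedures were tested on simulated data.

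The members, gene lists and tests were chosen with earlier results of these data known. Shared regions were ranked on the smaller of their 2 folds, and those named are the 10 highest without satellite-like sequence, the 10 highest within 1 kb of a protein-coding TSS, the 5 highest over small RNA genes, for no other ZFP and satellite-like, the 3 chromosomes with most satellite regions, the 3 regions called for most ZFPs and every let-7 list gene with a peak. Peaks on the pseudogene, CISD2, other ZFPs' exons and single-replicate genes, and other regions of the kinds described, were named after their values were seen. The batch of each library was not given in the sources used here. Peaks of the mock IP itself were not analysed here.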

Additional observations from a re-analysis of the deposited data

How the results depend on the processing

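All 58 alternative tests of the 7 measures kept their direction, and none passed the threshold, which no measure could pass alone (smallest adjusted p = 0.424, two-sided exact permutation test, for median peak width without CNBP, SALL4 and ZFP36L1). Leaving out a replicate gave a satellite-like share of 36.3 to 52.8% (rank 16 or 5), a share near a TSS of 10.1 to 21.5% and 417 to 606 peaks. Among only the 30 ZFPs that the study lists with Cut&Run target genes, LIN28B ranked 7 by satellite-like share and 19 by share near a TSS. The other measures were not repeated in this way. With the replicate block, in which values were centred on the mean of all lists with the same replicate number, the satellite-like share was 44.5% and every difference was unchanged, since both numbers occur in each ZFP. The 227 regions became 219 with an overlap of 50% of the shorter peak, 182 with summits at most 150 bp apart, 210 and 162 with −log10 q of at least 2 and 5, and 183 on chromosomes 1 to 22, X and Y. Counts of satellite regions ran from 151 to 167 at other pentamer minimums, and alpha-period regions from 16 to 18 at other identities. Leaving out chrM, the libraries labelled U2AF1 and ZNF706, whose strongest exon peaks were on other genes, or CNBP, SALL4 and ZFP36L1, leaving out a replicate for peak number, overlap, GC content and width, and the other class thresholds were chosen after the data were seen. Without a read total for each library, a region missing from a list may be absent or below detection.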
